A study of Mus musculus with 18 samples.

Results

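The genes described here encode 6 CC chemokines that macrophages and microglia release during inflammation, Ccl2, Ccl7, Ccl12, Ccl3, Ccl4 and Ccl5. They were taken by symbol from a table of 53465 annotated genes, and all 6 passed the filter on low counts in each of the 11 comparisons. Their RNA was measured in microglia and macrophages that had been sorted from contused spinal cords of female C57BL/6J mice aged 8 to 10 weeks. The mice received PBS, 100 ng of recombinant IL-13 or 100 ng of recombinant IL-4 in the spinal cord 48 h after the injury, and the cells were collected 24 h later. Every group therefore carried the contusion and an intraspinal injection, and no uninjured cord entered the comparisons. Microglia were gated as CD45low, CD11b+ and F4/80+ cells and macrophages as CD45high, CD11b+ and F4/80+ cells. Each of the 9 cords gave both a microglia and a macrophage library. Mice 1, 2 and 3 had PBS, mice 5, 6 and 7 IL-13 and mice 8, 9 and 10 IL-4, which makes 18 libraries in 6 groups of 3.

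Chemokines are small secreted proteins that attract leukocytes by binding receptors on their surface. CCL2, CCL7 and CCL12 are the monocyte chemoattractant proteins, which act mainly through CCR2 and draw monocytes out of the bone marrow and into injured tissue. CCL3, CCL4 and CCL5 attract monocytes, macrophages and T cells, CCL3 and CCL5 in part through CCR1. Transcription of these genes is switched on by Toll-like receptors, TNF and IL-1 through NF-kB. IL-4 and IL-13 share the IL-4 receptor alpha chain and signal through STAT6 to induce the genes of alternative activation, such as Retnla and Chil3.

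In the GENCODE annotation of GRCm38 the 6 genes lie on chromosome 11 in 2 groups. Ccl2 (ENSMUSG00000035385.5, 82035571 to 82037453), Ccl7 (ENSMUSG00000035373.2, 82045712 to 82047525) and Ccl12 (ENSMUSG00000035352.3, 82101845 to 82103400), all on the + strand, fall within 67.8 kb that also hold Ccl11. Ccl5 (ENSMUSG00000035042.2, 83525778 to 83530518, - strand), Ccl3 (ENSMUSG00000000982.5, 83647844 to 83649355, - strand) and Ccl4 (ENSMUSG00000018930.3, 83662584 to 83664683, + strand) fall within 139 kb, with Ccl9 and Ccl6 between Ccl5 and Ccl3. The groups are 1422 kb apart. Ccl2 overlaps the gene model Gm17268, and the libraries do not record strand. The other 5 genes overlap no annotated gene.

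The name of the family comes from adjacent cysteines near the start of the mature protein. The coding stretch around them is shown for 5 of the genes because it marks the family and lets the members be compared at the same place. Each line gives 30 bases of the GENCODE protein-coding transcript, 5′ to 3′, and the capitals are the codons of the paired cysteines.
Ccl2: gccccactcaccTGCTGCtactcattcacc
Ccl7: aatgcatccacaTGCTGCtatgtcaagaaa
Ccl12: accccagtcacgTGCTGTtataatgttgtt
Ccl4: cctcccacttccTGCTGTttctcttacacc
Ccl5: gacaccactcccTGCTGCtttgcctacctc
Over the 15 pairs of members, the longest run of bases shared by their transcripts was between 9 bases and the 23 bases of Ccl2 and Ccl7. No window of 76 bases, the length of a read, was shared between a member and another gene of the annotation, on either strand. 

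The deposited totals ranged from 35961305 to 45849829 counts per library. Levels are given as CPM, read counts relative to the library total after TMM scaling over the 18 libraries. The summed CPM of 10 microglial markers was 8053 to 14126 in PBS microglia and 2973 to 4472 in PBS macrophages, and that of 10 markers of monocyte-derived macrophages was 939 to 1564 and 11187 to 14138. Microglia libraries also held markers of fibroblasts and pericytes (9 genes, 232 to 8172 summed CPM, below 10 in every macrophage library) and of endothelial cells (6 genes, 722 to 2582, against 50.0 to 438). The share of counts from the 13 mitochondrially encoded protein genes was highest in IL-4 microglia. In these bulk samples, fewer cells of a type and less RNA per cell cannot be told apart.

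Per kilobase of exon, the scale on which different genes can be compared, Ccl7 and Ccl2 led in PBS macrophages, at 576 ± 165 and 548 ± 132 CPM per kb (SD, n = 3). Ccl3 followed at 207 ± 17.6 CPM per kb, then Ccl4 at 155 ± 12.9, Ccl12 at 48.5 ± 23.0 and Ccl5 at 0.980 ± 0.280. Ccl7 and Ccl2 did not differ beyond their spread, whereas the ranges of the other neighbours in this order did not overlap. In PBS microglia the order was another: Ccl4 (104 ± 26.1), Ccl12 (98.5 ± 6.82), Ccl3 (95.2 ± 23.6), Ccl2 (66.9 ± 23.7) and Ccl7 (49.9 ± 25.7 CPM per kb) followed each other with overlapping ranges, and Ccl5 lay far below at 2.99 ± 1.52. After IL-4, Ccl7 stood at the top of the microglial order with 313 ± 235 CPM per kb, ahead of Ccl2 with 164 ± 133 and Ccl12 with 151 ± 100. These ranges also overlapped. The length used is that of all annotated exons of a gene, 1138 bases for Ccl2 and 960 for Ccl5. Their protein-coding transcripts shown above have 813 and 532 bases, whereas both lengths are equal for the other members. A shorter length raises the level, so the place of Ccl2 in these orders depends on that choice.

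**Figure D1:**
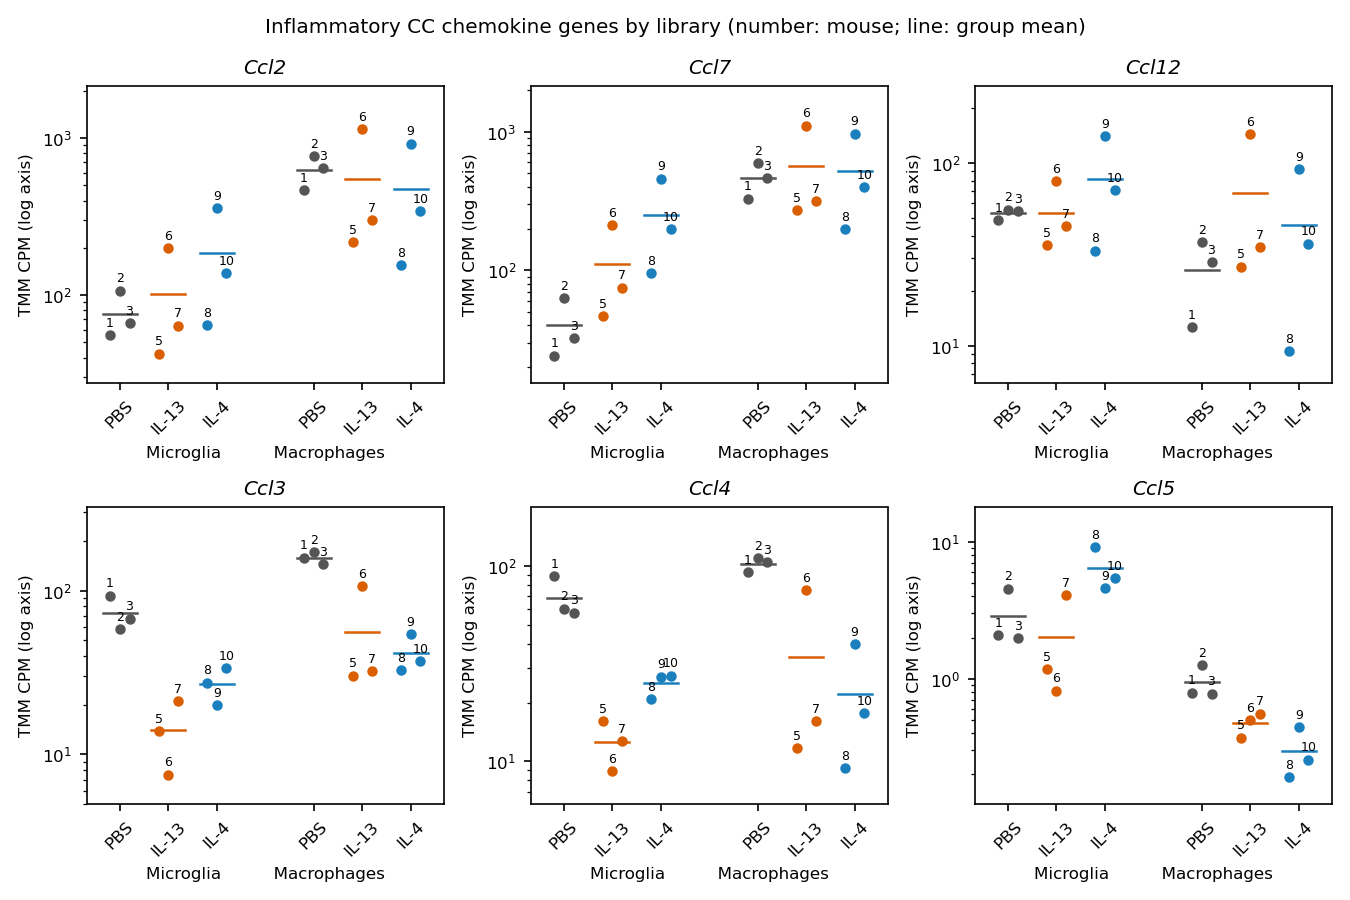
Level of each of the 6 genes in the 18 libraries, in TMM CPM on a log axis, by treatment and cell type; points are libraries labelled with the mouse number and lines are group means. Ccl3 and Ccl4 were lower with either cytokine than with PBS in every microglia library, whereas Ccl2, Ccl7 and Ccl12 were high in IL-13 mouse 6 and IL-4 mouse 9 in both cell types.

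Ccl3 and Ccl4, which encode the macrophage inflammatory proteins 1 alpha and 1 beta, were the members called with the cytokines, Ccl4 in microglia with both, and Ccl3 in IL-13 microglia and in IL-4 macrophages. In microglia, Ccl3 was at 93.1, 58.2 and 67.5 CPM with PBS, at 13.8, 7.52 and 21.1 CPM with IL-13 and at 27.4, 20.0 and 33.6 CPM with IL-4. Ccl4 was at 88.6, 60.2 and 57.5 CPM with PBS, at 16.1, 8.89 and 12.7 CPM with IL-13 and at 20.9, 27.1 and 27.4 CPM with IL-4. Each cytokine library lay below each PBS library for both genes, and IL-13 mouse 6 was the lowest of all. Over all genes, 16% did not overlap between IL-13 and PBS and 25.9% between IL-4 and PBS. With IL-13, Ccl4 fell by 2.44 on the log2 scale (SE 0.28, adjusted p = 0.00778, edgeR's quasi-likelihood test) and Ccl3 by 2.36 (SE 0.38, adjusted p = 0.0408). These 2 of 6 members compare with 0.366% of all 15566 genes called in that comparison. With IL-4, Ccl4 fell by 1.43 (SE 0.27, adjusted p = 0.0298, edgeR), which makes 1 of 6 members, beside 2.22% of all genes, and Ccl3 had a log2 fold change of -1.41 (SE 0.37) that missed the threshold (adjusted p = 0.0961, edgeR). The median log2 fold change of the 6 members was -0.24 with IL-13 and 0.91 with IL-4, where it was -0.00 and -0.06 over all genes. The call of Ccl4 with IL-4 was lost without any 1 of the 6 mice compared (adjusted p from 0.0692 to 0.142, edgeR), and that of Ccl3 with IL-13 without any mouse other than mouse 7 (0.0508 to 0.196), whereas Ccl4 with IL-13 remained called in all 6 of these fits. In 1 model of all 18 libraries, Ccl4 was called with neither IL-13 (adjusted p = 0.0621, edgeR) nor IL-4 (0.137).

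In macrophages, Ccl3 was at 158, 172 and 145 CPM with PBS, at 30.2, 106 and 32.1 CPM with IL-13 and at 32.8, 54.3 and 37.2 CPM with IL-4. Ccl4 was at 92.7, 109 and 104 CPM with PBS, at 11.7, 74.8 and 16.1 CPM with IL-13 and at 9.23, 39.7 and 17.6 CPM with IL-4. No cytokine library reached a PBS library, but IL-13 mouse 6 and, less so, IL-4 mouse 9 lay well above the other cytokine libraries. Over all genes, 24.5% did not overlap between IL-13 and PBS and 34.7% between IL-4 and PBS. Ccl3 fell with IL-4 by 1.94 on the log2 scale (SE 0.43, adjusted p = 0.0147, edgeR), as the only 1 of 6 members called, beside 14% of all 13606 genes. Ccl4 with IL-4 missed the threshold, at -2.21 (SE 0.68, adjusted p = 0.0561, edgeR). With IL-13, 0 of the 6 members were called by edgeR, beside 4.19% of all genes, and the number with an unadjusted p under 0.05 was 2, beside 17.9%. In that comparison 1 member was called by DESeq2, beside 8.55% of all genes. Ccl3 had a log2 fold change of -1.49 (SE 0.42, adjusted p = 0.0851, edgeR) and Ccl4 of -1.57 (SE 0.66, adjusted p = 0.245). Without mouse 6 both were called, at -2.33 for Ccl3 (adjusted p = 0.000483, edgeR) and -2.85 for Ccl4 (adjusted p = 0.0141). The call of Ccl3 with IL-4 was lost without mouse 8 (adjusted p = 0.0512, edgeR) or mouse 10 (0.0623), and Ccl4 with IL-4 was called without mouse 9 (-2.94, 0.0306). The members' median log2 fold change was -1.03 with IL-4 and -0.57 with IL-13, against 0.02 and 0.00 over all genes.

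Immediate early genes, which dissociation of tissue can induce, were summed beside these members. The 13 genes of the list came to 1143 to 1354 CPM in PBS microglia, 661 to 840 CPM with IL-13 and 639 to 979 CPM with IL-4. In macrophages the sum was 4585 to 5173 CPM with PBS, 2441 to 4997 CPM with IL-13, where mouse 6 was the highest, and 2813 to 4009 CPM with IL-4, where mouse 9 was the highest. Of its genes, edgeR called Fos lower with IL-4 in microglia (log2 fold change -1.36, adjusted p = 0.0459), and Atf3 (-0.63, adjusted p = 0.0087) and Fos (-0.65, adjusted p = 0.0484) in macrophages. With IL-13 it called 0 of 13 in microglia and Atf3 (-1.12, adjusted p = 0.00142) and Nr4a1 (-1.36, adjusted p = 0.0484) in macrophages. The sums of microglial markers and, with IL-4, of neutrophil markers in macrophages were lower than with PBS. The microglial sums of IL-13 and PBS microglia overlapped. The 10 microglial markers summed to 8053 to 14126 CPM in PBS microglia, 4290 to 8915 CPM with IL-13 (0 called) and 3468 to 5597 CPM with IL-4 (4 called lower). In macrophages they summed to 2973 to 4472 CPM with PBS, 1208 to 2483 CPM with IL-13 (4 called lower) and 486 to 876 CPM with IL-4 (10 called lower). The 10 neutrophil markers summed to 931 to 1651 CPM in PBS macrophages, 500.5 to 3251 CPM with IL-13 (0 called) and 219 to 872 CPM with IL-4 (3 called lower), and to at most 198 CPM in any microglia library. Other lists differed in the same libraries. The fibroblast and pericyte markers summed to 2583 to 3713 CPM in PBS microglia, 1304 to 8172 CPM with IL-13 and 232 to 1602 CPM with IL-4. The 6 endothelial markers came to 722 to 1595, 1540 to 2582 and 1845 to 2338 CPM in microglia, where 0 were called with either cytokine. In macrophages they came to 50.0 to 63.5, 151 to 219.8 and 238 to 438 CPM, with Pecam1 leading the cytokine sums, and 2 were called higher and 1 lower with IL-13 and 2 higher and 2 lower with IL-4. Astrocyte markers in macrophages were at 11.4 to 14.9 CPM with PBS, 54.7 to 394 CPM with IL-13 and 54.7 to 495 CPM with IL-4, where Gja1 made up nearly all of the sum. Of the 5 tested, 1 was called higher and 0 lower with IL-13, and 1 higher and 1 lower with IL-4. The part of these lists in the values of Ccl3 and Ccl4 was not tested.

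The monocyte chemoattractant genes did not fall together with them. In microglia, Ccl7, which encodes MCP-3, was at 24.2, 63.2 and 32.5 CPM with PBS, at 46.5, 213 and 75.1 CPM with IL-13 and at 94.9, 459.5 and 198 CPM with IL-4. All IL-4 libraries exceeded all PBS libraries, while those of IL-13 and PBS overlapped. The log2 fold change of 2.68 with IL-4 (SE 0.71) did not pass the threshold (adjusted p = 0.101, edgeR), but it did with DESeq2 (adjusted p = 0.022) and when edgeR was fitted to all 18 libraries (0.0481). With IL-13 it was 1.48 (SE 0.68, adjusted p = 0.673, edgeR).

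Ccl2, which encodes MCP-1, the main attractant of CCR2+ monocytes, was at 55.6, 107 and 66.1 CPM in PBS microglia, at 42.3, 199 and 64.0 CPM in IL-13 microglia and at 64.3, 356 and 139 CPM in IL-4 microglia. The groups overlapped, and mouse 6 and mouse 9 were the high libraries of their groups. The log2 fold change was 1.32 with IL-4 (SE 0.68, adjusted p = 0.388, edgeR) and 0.42 with IL-13 (SE 0.67, adjusted p = 1.0). Without mouse 6, the change with IL-13 was -0.51. Ccl12, which encodes MCP-5, was at 48.7, 55.5 and 54.5 CPM with PBS, at 35.4, 79.1 and 45.2 CPM with IL-13 and at 33.1, 139.5 and 71.1 CPM with IL-4. Its PBS libraries lay within 7 CPM of each other and inside the range of both cytokine groups.

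In macrophages, Ccl2 was at 466, 764 and 642 CPM with PBS, at 218, 1136 and 299.7 CPM with IL-13 and at 155, 921 and 343 CPM with IL-4. Ccl7 was at 328, 592 and 464 CPM with PBS, at 272, 1104 and 316 CPM with IL-13 and at 198, 967 and 397 CPM with IL-4. Ccl12 was at 12.6, 36.9 and 28.6 CPM with PBS, at 27.0, 144 and 34.7 CPM with IL-13 and at 9.30, 92.1 and 36.2 CPM with IL-4. For all 3 genes the cytokine groups overlapped the PBS group, since mouse 6 and mouse 9 lay above every PBS mouse and the other cytokine mice near or below them. The log2 fold changes lay between -0.40 (Ccl2 with IL-4, SE 0.67) and 1.40 (Ccl12 with IL-13, SE 0.80), and adjusted p was at least 0.413 for each (edgeR). The direction for Ccl7 turned when mouse 6 was left out of the IL-13 comparison (-0.63) or mouse 9 out of the IL-4 comparison (-0.65).

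Ccl5, which encodes RANTES, was the scarcest member. It was at 2.08, 4.55 and 1.98 CPM in PBS microglia, 1.17, 0.817 and 4.10 CPM in IL-13 microglia and 9.19, 4.59 and 5.44 CPM in IL-4 microglia. In macrophages it was at 0.792, 1.25 and 0.779 CPM with PBS, 0.371, 0.498 and 0.556 CPM with IL-13 and 0.190, 0.444 and 0.256 CPM with IL-4, which rests on 8 to 41 counts per library. The IL-4 libraries thus lay above all PBS libraries in microglia and below all of them in macrophages, where those of IL-13 also lay below (log2 fold change -0.97, SE 0.51, adjusted p = 0.365, edgeR). Neither difference with IL-4 passed the threshold, with a log2 fold change of 1.18 in microglia (SE 0.77, adjusted p = 0.534, edgeR) and -1.66 in macrophages (SE 0.52, adjusted p = 0.0592). T cells and NK cells are known sources of this chemokine. Their 12 markers summed to at most 4.25 CPM in any library, and in IL-4 microglia 11 of the 12, Cd3e, Nkg7 and Ncr1 among them, had no count. The highest sum was in the microglia of IL-4 mouse 8, which also had the highest Ccl5. All of it came from Klrb1c, a gene of NK cells. In the microglia of IL-4 mice 9 and 10 the sums were 0 and 0.0272 CPM, with Ccl5 at 4.59 and 5.44 CPM. Those of IL-13 mouse 5 had a sum of 2.90 CPM and Ccl5 at 1.17 CPM. The part of NK cells in the Ccl5 values was not tested.

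**Figure D2:**
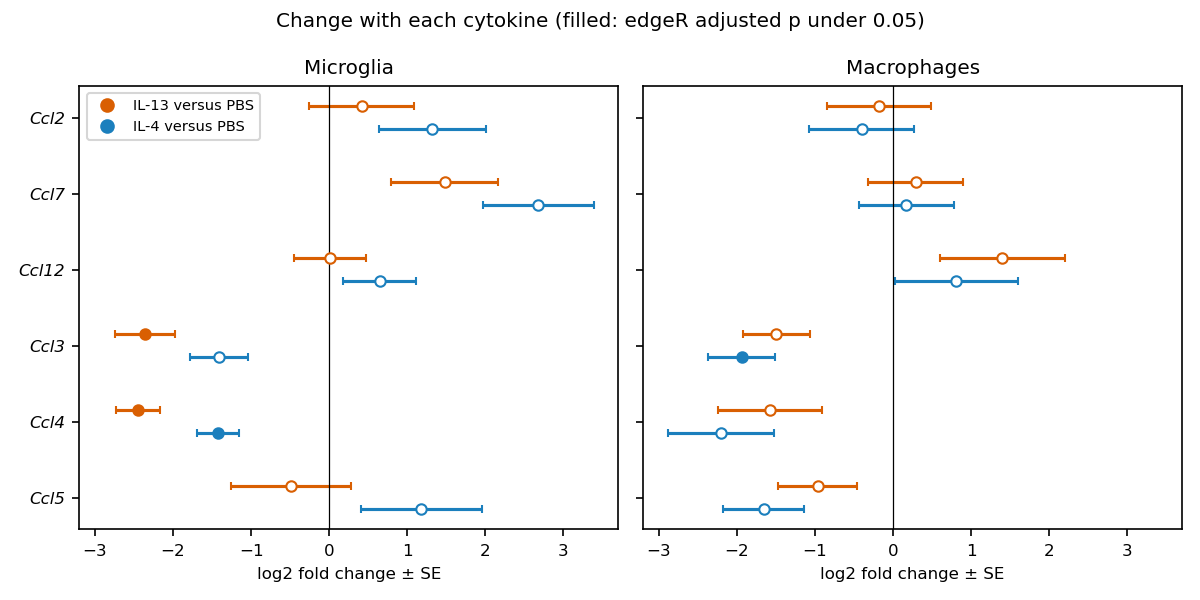
The log2 fold change of each gene with IL-13 or IL-4 against PBS, with its standard error, in microglia and in macrophages; filled points have an adjusted p under 0.05 by edgeR (3 mice per group). Ccl3 and Ccl4 lie left of 0 in all 4 comparisons, from -1.41 to -2.44, and Ccl7 in microglia lies farthest to the right, at 2.68 with IL-4.

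Directly between IL-4 and IL-13, edgeR called 0 of the 6 members in microglia, beside 0.0385% of all genes, and 0 in macrophages, beside 0.25%. The number with an unadjusted p under 0.05 was 2 in microglia, beside 11.4% of all genes, and 0 in macrophages, beside 11.1%. In microglia every IL-4 library exceeded every IL-13 library for Ccl4 (log2 fold change 1.02, SE 0.27, adjusted p = 0.271, edgeR) and for Ccl5 (1.67, SE 0.78, adjusted p = 0.463), 2 of 6 members, where 12.3% of all genes did not overlap. DESeq2 called Ccl4 there (adjusted p = 0.0209), 1 member beside 3.65% of all genes, and 0 members in macrophages, beside 3.09%. The members' median difference was 0.98 in microglia and -0.51 in macrophages, against -0.02 and -0.00 over all genes, and in macrophages without mouse 6 the 5 members other than Ccl5 were higher with IL-4 than with IL-13, by 0.39 to 0.85.

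Between the cell types, PBS mice showed a difference in each of the 6 genes, beside 40.9% of all genes called. Ccl7 was lower in microglia than in macrophages by a log2 fold change of -3.56 (SE 0.37, adjusted p = 0.00013, edgeR), Ccl2 by -3.06 (SE 0.27, adjusted p = 5.72e-05), Ccl3 by -1.15 (SE 0.18, adjusted p = 0.00104) and Ccl4 by -0.60 (SE 0.18, adjusted p = 0.0235). Ccl12 and Ccl5 went the other way, at 1.00 (SE 0.32, adjusted p = 0.0358, edgeR) and 1.58 (SE 0.55, adjusted p = 0.0469). For each of the 6 genes the microglia and macrophage libraries did not overlap, as for 54% of all genes. Leaving out a mouse changed no call of Ccl2, Ccl7 or Ccl3. Ccl5 lost its call without any of the 3 mice (adjusted p from 0.116 to 0.203, edgeR) and with the mouse as a block (0.0745, with 5 members then called beside 40.2% of all genes), Ccl4 without mouse 2 (0.132) or mouse 3 (0.17), and Ccl12 without mouse 3 (0.141), where 3 members were called beside 28.9% of all genes.

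After the cytokines fewer members were called. The highest mouse exceeded the lowest in macrophages 5.93-fold for Ccl2 and 4.89-fold for Ccl7 with IL-4, against 1.64-fold and 1.80-fold with PBS, but the spread did not widen for every member, as for Ccl4 in microglia (1.31-fold with IL-4, 1.54-fold with PBS). After IL-4 only Ccl5 passed, 1 of 6 members beside 23.4% of all genes, at 4.45 (SE 0.68, adjusted p = 0.00326, edgeR). It remained called without each mouse in turn. After IL-13 only Ccl3 passed, at -1.97 (SE 0.58, adjusted p = 0.042, edgeR), 1 of 6 beside 26.7% of all genes, and it lost its call without each of the 3 mice. Without mouse 6 it was -0.84 (adjusted p = 0.0867, edgeR), since that mouse had 7.52 CPM in microglia and 106 CPM in macrophages. Ccl2 (-2.41, SE 0.79, adjusted p = 0.0605, edgeR) and Ccl7 (-2.31, SE 0.73, adjusted p = 0.0529) lay just outside the threshold, and both were called without mouse 6 (adjusted p = 0.00441 and 0.00404, edgeR). The same genes gave -1.31 (SE 0.76) and -1.02 (SE 0.69) after IL-4.

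Because both cell types came from the same animals, the mouse could be fitted as a block, and this changed the calls. After IL-4, 4 members were then called, beside 20.6% of all genes: Ccl2 at -1.29 (adjusted p = 0.00142, edgeR with the mouse block), Ccl7 at -1.02 (0.00283), Ccl12 at 1.15 (0.0301) and Ccl5 at 4.45 (0.0181). After IL-13, 2 members were called, beside 25.4% of all genes, Ccl2 at -2.35 (adjusted p = 0.000427, edgeR with the mouse block) and Ccl7 at -2.31 (0.000566), and Ccl3 was not (0.108). With the block and a mouse left out, Ccl2 and Ccl7 remained called in each of these fits. Ccl5 after IL-4 lost its call without mouse 8 (0.0783) or mouse 10 (0.0853), and Ccl12 without mouse 10 (0.101), which left 2 members beside 10.7% of all genes.

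The values of single mice show what the block takes up. Within a treatment the Ccl2 level of macrophages differed up to 5.93-fold between mice, but the microglia library of a mouse held a nearly constant fraction of the level in its macrophage library. For Ccl2 this fraction was 0.119, 0.140 and 0.103 with PBS, 0.194, 0.175 and 0.214 with IL-13 and 0.414, 0.387 and 0.404 with IL-4. For Ccl7 it was 0.0737, 0.107 and 0.0700 with PBS, 0.171, 0.193 and 0.238 with IL-13 and 0.480, 0.475 and 0.497 with IL-4. The 3 treatments did not overlap for either gene, 2 of 6 members, as for 1.5% of the 11226 genes with a count in every library. Between IL-4 and PBS alone, 3 members did not overlap, Ccl5 being the third, as for 21.7% of those genes. Within a treatment, the highest ratio exceeded the lowest by at most 1.36-fold for Ccl2 and 1.52-fold for Ccl7. Among the other members, the ratios of Ccl5 spread 1.43-fold with PBS, 4.49-fold with IL-13 and 4.67-fold with IL-4. The others spread up to 2.58-fold for Ccl12, and in IL-13 mice up to 9.26-fold for Ccl3 and 11.6-fold for Ccl4, where mouse 6 was the low value.

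**Figure D3:**
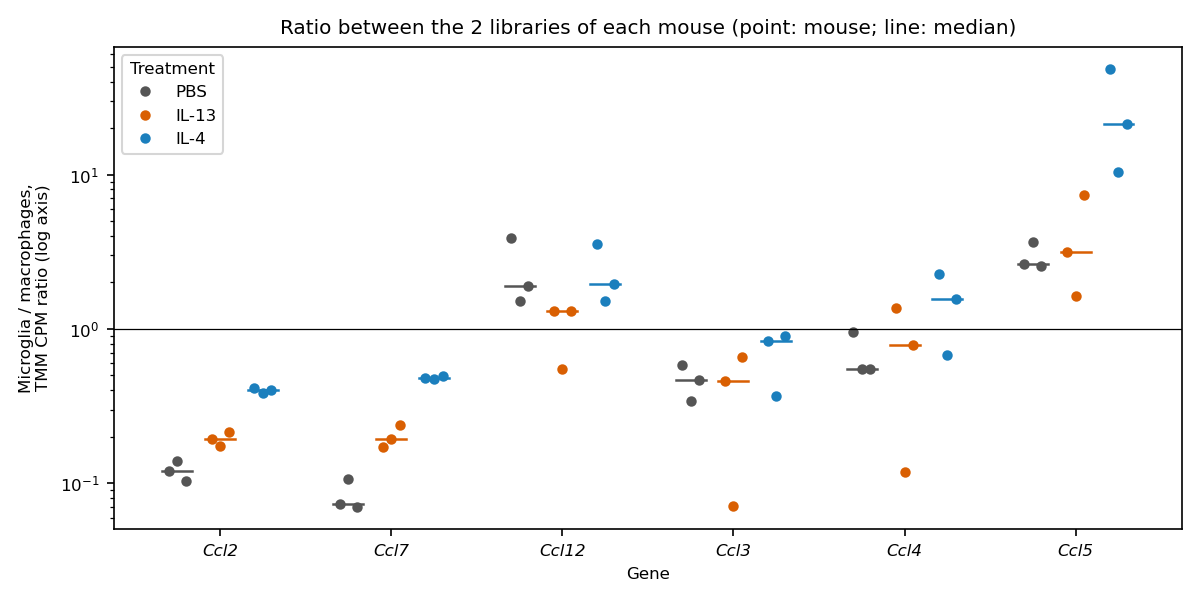
Ratio of the TMM CPM of the microglia library to that of the macrophage library of the same mouse, on a log axis, for each gene and treatment; points are mice and lines are medians of 3. The ratios of Ccl2 and Ccl7 lie close together within a treatment and step up from PBS (medians 0.119 and 0.0737) to IL-13 (0.194 and 0.193) and IL-4 (0.404 and 0.480).

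The difference in response between the cell types was tested on all 18 libraries. Without the block, 0 of the 6 members were called for IL-4, beside 0.992% of all genes, and 0 for IL-13, beside 0.0242%. The numbers with an unadjusted p under 0.05 were 2, beside 12.4% of all genes, and 0, beside 5.83%, and DESeq2 called 1 member for IL-4, Ccl5, beside 4.14% of all genes, and 0 for IL-13, beside 0.931%. With the mouse block, the response to IL-4 was higher in microglia than in macrophages for Ccl7, by 2.56 on the log2 scale (adjusted p = 0.000861, edgeR), and for Ccl2, by 1.75 (adjusted p = 0.0017), 2 of 6 members beside 1.14% of all genes called in that fit. Both calls held without each of the 6 mice in turn, at 2.45 to 2.75 for Ccl7 (adjusted p from 0.00157 to 0.0068) and 1.64 to 1.86 for Ccl2 (0.00346 to 0.0113). For IL-13 the blocked differences were 1.28 for Ccl7 (adjusted p = 0.0944, edgeR) and 0.69 for Ccl2 (0.343), and neither was called, beside 0.0181% of all genes. The IL-4 and IL-13 comparisons share the PBS libraries.

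The same ratio was taken for the 10 markers of monocyte-derived macrophages. The median over them was 0.119 with PBS, 0.113 with IL-13 and 0.174 with IL-4. From PBS to IL-4 the median ratio was higher for 7 markers and lower for 3. Ly6c2, a marker of inflammatory monocytes, was at 0.0322 with PBS, 0.0454 with IL-13 and 0.112 with IL-4, a step of similar size to that of Ccl2. Chil3, which is also a target of both cytokines, was at 0.0275 to 0.0662, 0.0811 to 0.0908 and 0.136 to 0.221, with no overlap between the treatments. Ly6c2 and F13a1, with higher ratios, and Fn1, with lower ones, did not overlap between IL-4 and PBS. The medians of Fn1 were 0.566, 0.167 and 0.168, and IL-4 was also below PBS for Vcan (0.595, 0.377 and 0.512) and Itga4 (0.444, 0.178 and 0.390). Without Chil3, the other 9 markers summed to 889 to 1313 CPM in PBS microglia, 892 to 1237 CPM in IL-13 microglia and 948 to 1785 CPM in IL-4 microglia, and to 8293 to 12378, 8411 to 14635 and 6105 to 9458 CPM in the macrophages. The part of macrophage RNA in the microglial values of Ccl2 and Ccl7 was not tested. The mitochondrial share of counts was 6.35% to 12.2% in IL-4 microglia and 2.18% to 3.53% in the other microglia, and its part was not tested either.

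Seen as deviations of each mouse from its group mean, on log2(CPM + 1), the 2 cell types of a mouse moved together in the monocyte chemoattractant genes. Over the 9 mice, Pearson's r between microglia and macrophages was 0.990 for Ccl2 (Spearman's rho 0.967), 0.974 for Ccl7 (0.967) and 0.945 for Ccl12 (0.983). Without the 2 mice farthest from the median it was 0.971, 0.941 and 0.919. For Ccl3 r was -0.802 (rho -0.683), and -0.491 without mice 6 and 7. It was -0.413 for Ccl4 and 0.325 for Ccl5 (rho -0.4 and 0.0667), and -0.0774 and -0.424 without their 2 mice. The median r over 16091 genes was 0.136, and the values of Ccl2, Ccl7 and Ccl12 stood at the percentiles 99.97, 99.93 and 99.6. These correlations are a description, noticed in the values. The points of a mouse share the animal, the injury, the injection and the dissociation, which cannot be told apart here.

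**Figure D4:**
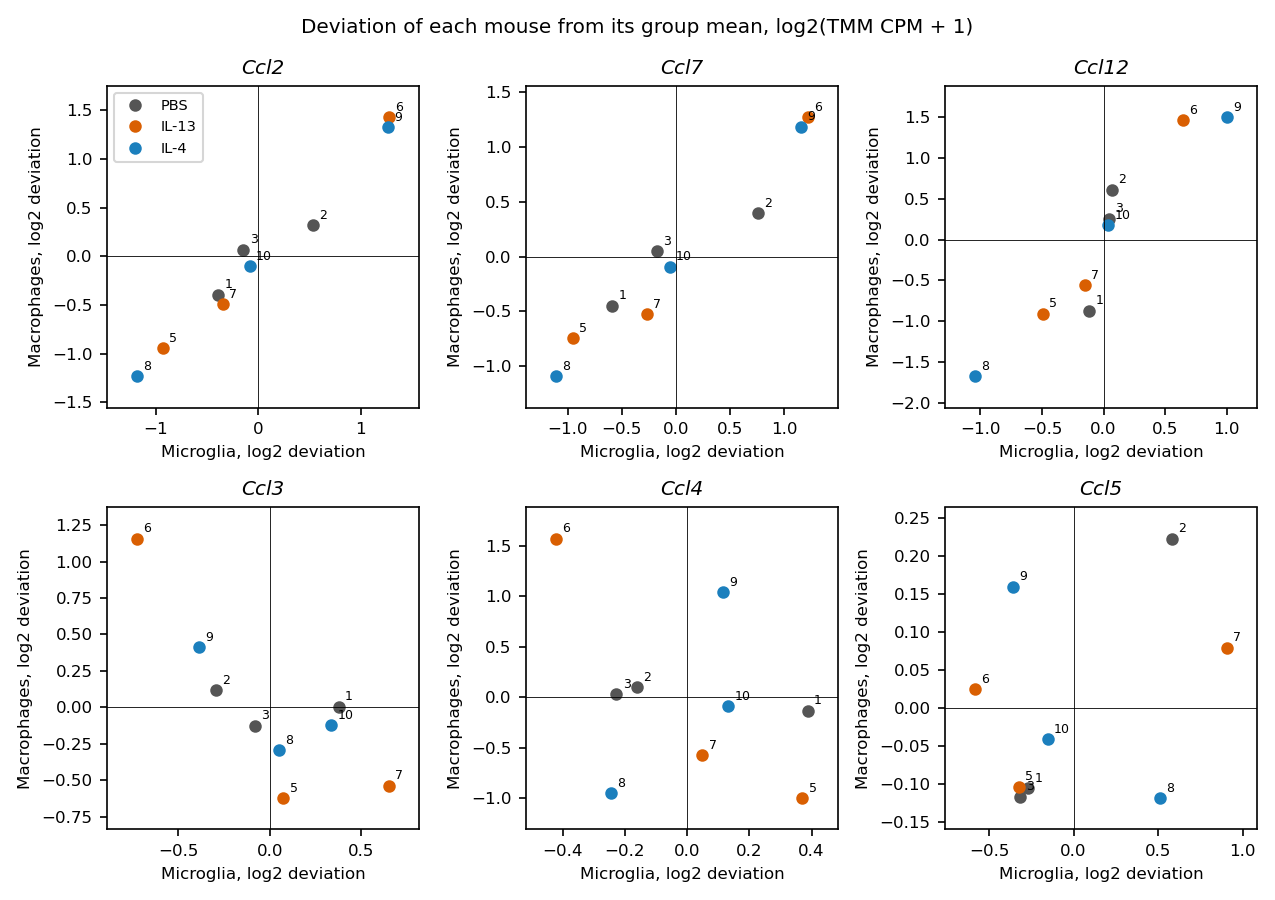
Deviation of each of the 9 mice from the mean of its group in microglia (horizontal) and in macrophages (vertical), in log2(TMM CPM + 1), for each gene; numbers are mice and colours are treatments. Ccl2, Ccl7 and Ccl12 line up along the diagonal (r of 0.990, 0.974 and 0.945), with mice 6 and 9 at the upper right and mice 5 and 8 at the lower left, whereas Ccl3, Ccl4 and Ccl5 do not.

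Some members followed each other within a cell type and others did not. Ccl2 and Ccl7, neighbours on the chromosome, had an r of 0.990 between their deviations over the 9 microglia libraries and 0.996 over the 9 macrophage libraries. In macrophages, Ccl4 deviated with Ccl2 (r = 0.978) and Ccl3 less closely (0.876), since all of these were high in mouse 6 and mouse 9. In microglia, Ccl2 and Ccl3 deviated in opposite directions (r = -0.702) and Ccl2 and Ccl4 weakly so (-0.345). Ccl3 and Ccl4, also neighbours, had an r of 0.586 between their deviations in microglia and 0.947 in macrophages. Over the levels of all 9 libraries, where the treatments are part of the relation, it was 0.951 and 0.975.

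Markers of other cells also differed between the mice of a treatment. The 10 neutrophil markers summed to 3251 CPM in the macrophages of mouse 6, against 500 and 543 CPM in the other IL-13 macrophages, and to 872 CPM in those of mouse 9, against 219 and 439 CPM in the other IL-4 macrophages and 931, 1651 and 974 CPM in PBS macrophages. S100a8 led that list in both mice. The 6 astrocyte markers summed to 394 CPM in the macrophages of mouse 6 and 495 CPM in those of mouse 9, against 11.4 to 167 CPM in the other macrophages. Gja1 made up nearly all of the sum in both mice, at 391 CPM in mouse 6 and 491 CPM in mouse 9. The 9 fibroblast and pericyte markers summed to 8172 CPM in the microglia of mouse 6 but to 935 CPM in those of mouse 9, between the 232 and 1602 CPM of the other IL-4 microglia. Markers of monocyte-derived macrophages did not move together in the macrophage libraries. Ly6c2 was at 230 CPM in mouse 6 and 204 CPM in mouse 9, against 32.5 to 76.2 CPM in the other cytokine mice. Fn1 went the other way, at 2749 and 4307 CPM against 4528 to 7134 CPM. These values are of listed genes and do not count cells, and their part in the chemokine values of mice 6 and 9 was not tested.

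Genes whose level ran most like a member's over the 9 libraries of a cell type were sought among those with at least 10 CPM on average. In macrophages, Ccl4 was most like Fos (r = 0.990) and Il1b (0.980), a cytokine that itself induces these chemokines. Ccl2 there was most like Map2k1 (0.984) and Rnpep (0.977), Ccl7 like Ubtd1 (0.990) and Glrx (0.984), Ccl12 like Dimt1 (0.976) and S100a10 (0.975), Ccl3 like Osgin1 (0.980) and Gm6377 (0.978), and Ccl5 like Ece1 (0.958) and Rngtt (0.955). In microglia, Ccl3 and Ccl4 were each other's most alike gene (0.951), followed by Myh10 (0.940) and Arpc4 (0.946). Ccl2 was most like Zpr1 (0.980) and Timm8a1 (0.958), Ccl7 like Glrx3 (0.978) and Tmem167 (0.972), Ccl12 like Eral1 (0.941) and Ccl2 (0.940), and Ccl5 like 1810030O07Rik (0.935) and Rad17 (0.928). These are the highest of 8260 genes in microglia and 7579 in macrophages, over 9 points each.

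A list of receptors and receptor-like genes was measured in the same cells, and not every gene on it is an established receptor of a member. Of the 8 genes listed, 5 were tested in microglia, and 0 were called with either cytokine. Ackr1 was at 23.5 to 91.7 CPM in PBS microglia and 100.2 to 239 CPM in IL-13 microglia (adjusted p = 0.636, edgeR), and Ccr2 at 10.3 to 28.3 CPM in PBS microglia and 22.8 to 63.1 CPM in IL-4 microglia (adjusted p = 0.229). In macrophages, 6 were tested and only Ccrl2, which encodes a non-signalling receptor-like protein, passed: it fell by 1.49 with IL-4 (adjusted p = 0.00272, edgeR) and by 1.67 with IL-13 (0.00447). Between the cell types, Ccr2, the receptor of CCL2, CCL7 and CCL12, stood at 16.5 ± 10.2 CPM in microglia and 208 ± 37.1 CPM in macrophages of PBS mice (SD, n = 3) (log2 fold change of microglia over macrophages -3.68, adjusted p = 0.000145 by edgeR). Ccr1 (-2.46, adjusted p = 2.91e-05, edgeR) and Ccrl2 (-3.68, 2.17e-06) were lower too, and these 3 were again lower in microglia after IL-4 and after IL-13. Ackr1, a scavenging receptor for chemokines that venular endothelium carries, was the only listed receptor called higher in the microglia libraries, at 65.1 ± 36.5 CPM with PBS against 0.640 ± 0.68 CPM in macrophages, beside the endothelial markers given above.

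Some other CC chemokine ligands rose with both cytokines. Of 12 listed, 8 were tested in microglia, where 4 rose with IL-4, beside 2.22% of all genes called, and 3 with IL-13, beside 0.366%. In macrophages 7 were tested, and 6 rose with IL-4, beside 14% of all genes called, and 5 with IL-13, beside 4.19%. None of them was called lower in these 4 comparisons, although Ccl19 in microglia was at 3.17 to 8.15 CPM with PBS and 0 to 0.674 CPM with IL-4 (adjusted p = 0.209, edgeR). Ccl24, the eosinophil attractant eotaxin-2, rose by 8.40 with IL-4 (adjusted p = 5.74e-05, edgeR) and 6.44 with IL-13 (0.000391) in microglia, and by 8.61 (9.82e-05) and 8.00 (0.000279) in macrophages. Ccl8, which encodes MCP-2, rose by 6.35 (adjusted p = 0.00127, edgeR) and 5.00 (0.00778) in microglia, and by 7.02 (9.43e-05) and 6.84 (0.000216) in macrophages. Ccl6 rose in all 4 comparisons and Ccl9 in all but IL-13 microglia. Both of these genes lie between Ccl5 and Ccl3 on chromosome 11.

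Of 22 listed inducers and transducers of chemokine transcription, 20 were tested in each cell type. Over all genes, edgeR called 2.22% with IL-4 and 0.366% with IL-13 in microglia, and 14% and 4.19% in macrophages. In microglia 2 fell with IL-4 and the same 2 with IL-13, Tnf (-2.37, adjusted p = 0.0192, and -2.98, adjusted p = 0.0156, edgeR) and Tlr2 (-2.48, 0.00735, and -2.10, 0.0331). In macrophages 5 fell and 2 rose with IL-4, and 3 fell and 0 rose with IL-13. Tnf (-2.20, adjusted p = 0.00356, and -2.07, adjusted p = 0.0122, edgeR) and Tlr2 (-1.49, 0.000543, and -1.09, 0.00763) were again among those that fell. Higher levels were seen for Nfkb1, at 21.2 to 28.2 CPM in PBS macrophages and 40.8 to 57.9 CPM in IL-4 macrophages. Tlr4 was at 99.9 to 120 CPM and 144 to 225 CPM in the same groups. Nfkb1 and Tlr4 were picked from their values. Of the 9 feedback inhibitors of NF-kB signalling, 0 were called in microglia. In macrophages 4 fell and 1 rose with IL-4, among them Nfkbiz (-2.20, adjusted p = 0.0186, edgeR) and Tnfaip3 (-0.92, 0.0158), which encodes the deubiquitinating enzyme A20, and these 2 alone fell with IL-13 (-2.18, 0.045, and -1.18, 0.0121). The response to both cytokines was visible in the genes of alternative activation: of the 13 listed, 8 of 12 tested rose with IL-4 in microglia and 6 with IL-13, and 13 and 12 of 13 in macrophages, with 0 lower.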

How the data were processed

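The authors sequenced SMART-seq2 libraries on a HiSeq2500 (2 × 76 bases), which record neither strand nor molecular identifiers. Per the labels, they used STAR 2.5.3a and RSEM 1.3.0 with GRCm38, and they deposited RSEM's expected counts, whole numbers that were not normalized. RSEM divides ambiguous reads between genes, and amplified reads are not independent molecules.

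From these counts, edgeR 4.0.16 (R 4.3.3) gave TMM CPM and quasi-likelihood F tests after its filter on low counts, with Benjamini-Hochberg adjustment over all genes tested and a threshold of 0.05. Microglia and macrophages were fitted separately (9 libraries each), the cell types within a treatment on 6 libraries and the responses' difference on 18. Standard errors come from the F statistic. Alternatives were DESeq2 1.42.0, its size factors, no filter, 1 model of 18 libraries, each mouse left out and the mouse as a block. Same-numbered libraries come from the same animal by the labels, and their deviations over 16535 genes correlated at 0.0485 to 0.205.

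Group values are means of 3 mice, and an exact permutation test of 3 against 3 cannot give a two-sided p below 0.1. All 6 members are named. From each list, genes past the threshold were counted and up to 4 with the lowest p named, and likeness is the 2 highest Pearson r among genes of at least 10 CPM. Of the table's identifiers, 94.6% are in GENCODE M21, which gave positions and sequences. Scripts were tested on simulated data. Members and lists were chosen with earlier results of these data known. Dose, age and gates are from the study's methods. Some items are not reported here.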

Additional observations from a re-analysis of the deposited data

Results flagged for a closer look

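With the mouse as a block, the response to IL-4 differed between microglia and macrophages for Ccl2, by 1.75 on the log2 scale (adjusted p = 0.0017, edgeR), and for Ccl7, by 2.56 (adjusted p = 0.000861, edgeR). The ratio of microglia to macrophages was higher in 3 of 3 IL-4 mice than in 3 of 3 PBS mice for both genes. IL-4 and PBS ratios also did not overlap for Ccl5 and for the macrophage markers Ly6c2, Chil3 and F13a1, all higher with IL-4, for the marker Fn1, which was lower, and in either direction for 21.7% of the genes with a count in every library. Without the block, which leaves the spread between mice in the error, the differences were 1.69 (adjusted p = 0.593, edgeR) and 2.47 (adjusted p = 0.314). Among the other members, the blocked difference was 2.89 for Ccl5 (adjusted p = 0.285, edgeR), 1.01 for Ccl4 (0.701), 0.53 for Ccl3 (0.863) and -0.02 for Ccl12 (1.0).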

How the results depend on the processing

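The counts of members called stayed within 1.5 times under the alternatives not named here. Percentages are the share of all genes tested that the same fit called. In microglia with IL-4, 3 members were called with DESeq2 (7.79%). With IL-13, 1 was called with all 18 libraries in 1 model (1.04%). Between IL-4 and IL-13, 1 was called with DESeq2 (3.65%). In macrophages with IL-4, 3 were called with DESeq2 (19.6%), 2 without the filter (8.72%) and 2 with 18 libraries (6.37%). With IL-13, 1 was called with DESeq2 (8.55%) and 1 without the filter (3.26%). Between the cell types after IL-4, 4 were called with the mouse block (20.6%), and 3, 4 and 2 when mice 8, 9 and 10 were left out of it in turn (14.4%, 12.4% and 10.7%). After IL-13, 3 were called without the filter (14.8%), 2 with the block (25.4%) and 2 with the block and any mouse left out (12% to 23.2%). The response to IL-4 differed between the cell types in 1 member with DESeq2 (4.14%), 2 with the block (1.14%) and 2 with the block and any mouse left out (0.441% to 0.866%). The mouse block changed no other count by more than 1.5 times. Leaving out mice within the block was added after seeing the data.

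With single mice left out of the fits without a block, the members called were 0 in all 6 for IL-4 in microglia (0.459% to 1.62% of all genes), 1 to 2 for IL-13 in microglia (0.135% to 0.308%), 0 to 2 in macrophages for IL-4 (7.39% to 11.4%) and for IL-13 (1.41% to 3.76%), 3 to 5 for the cell types with PBS (28.9% to 34.5%) and 0 to 2 after IL-13 (8.44% to 25.4%). Changes in direction under the alternatives came only from leaving out a mouse, and none concerned a difference that had been called. In microglia, the log2 fold change of Ccl12 ranged from -0.0054 to 1.02 with IL-4, from -0.38 to 0.23 with IL-13 and from -0.016 to 1.03 between them, and with IL-13 Ccl2 ranged from -0.51 to 0.79 and Ccl5 from -1.52 to 0.0030. In macrophages with IL-4, Ccl2 ranged from -1.34 to 0.025, Ccl7 from -0.65 to 0.57 and Ccl12 from -0.21 to 1.31, and with IL-13 Ccl2 from -1.25 to 0.20 and Ccl7 from -0.63 to 0.62. Between IL-4 and IL-13 they ranged from -1.15 to 0.85 (Ccl2), -0.93 to 0.80 (Ccl7), -1.59 to 0.55 (Ccl12), -0.75 to 0.39 (Ccl3) and -1.35 to 0.65 (Ccl4). Between the cell types, Ccl4 ranged from -0.013 to 0.91 after IL-4 and -2.06 to 0.037 after IL-13, and Ccl12 from -0.55 to 0.38 after IL-13. The cell type difference in the response ranged from -0.50 to 0.17 for Ccl12 with IL-4, and with IL-13 from -1.56 to 0.28 for Ccl3, -1.50 to 0.62 for Ccl4 and -0.42 to 0.89 for Ccl5.

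With the block, leaving out mouse 6 turned Ccl12 (0.38) and Ccl4 (0.048) between the cell types after IL-13, and Ccl3 (0.28) and Ccl4 (0.65) in the difference of the IL-13 response, where mouse 7 turned Ccl5 (-0.36). In the difference of the IL-4 response, Ccl12 turned without mouse 1 (0.37), mouse 9 (0.25) or mouse 10 (0.055). The causes were not tested. Ccl5 in macrophages rests on 8 to 41 counts per library and every other member on at least 348, so depth limits Ccl5 most.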
